A study of Arabidopsis thaliana with 17 samples.

Results

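Cell division in Arabidopsis thaliana roots was followed through 34 nuclear-encoded cell cycle genes, chosen by name from 37336 annotated features. They comprised 20 genes grouped as mitotic (A- and B-type cyclins, B-type cyclin-dependent kinases, KNOLLE, 2 Aurora kinases, CDC20.1 and CYCD3;1) and 14 genes of S phase (MCM2 to MCM7, PCNA1, PCNA2, CDC6, CDT1A, CDC45, ORC2, RNR1 and TSO2). CYCD3;1 was listed with the mitotic genes, although D-type cyclins are known for the entry into the cycle from G1. All 34 were found in both deposited tables, and all 34 passed the filter on low values.

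Whole-root RNA-seq libraries of 3 groups were used: bamboo (replicates 2 and 3, n = 2) and a pair of wild-type sets, Col-0 (n = 3) and Col-0-b (n = 3). The plants of each group were 14 days old, mock-treated and grown on half-strength MS medium with sucrose, and the genotype label of both wild-type sets is Col-0. The wild-type columns deposited beside bamboo are named only as wild type and were taken as Col-0-b, since the other deposited table holds 3 columns named for Col-0. The series' design names bamboo as a mutant of the lncRNA BAMBOO, which the study pairs with the transcription factor subunit NF-YA2, whereas the deposited table is named with the letters KD. How BAMBOO was altered, and whether bamboo is 1 line or several, was not given in the sources used here, and the level of BAMBOO itself was not analysed here. Nothing in the labels says whether the replicates came from separate plants or pools, so the p-values measure the spread between these libraries.

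Plant cells copy their DNA in S phase and divide in M phase, and most of the genes that carry out either step are transcribed in a burst at the matching stage. E2F factors, held in check by the retinoblastoma protein, drive the S-phase genes, and MYB3R factors drive many mitotic genes. In a root, dividing cells lie mainly in the meristems of the main root and of lateral roots. In bulk roots, fewer dividing cells and less of a transcript per dividing cell cannot be told apart.

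Depth ran from 22755962 to 24333119 reads in bamboo, from 13637179 to 21206367 in Col-0 and from 16963843 to 20743588 in Col-0-b. The 34 genes had between 33 and 1845 reads in a library of bamboo or Col-0-b, so that counting alone gives a relative error between 2.77% for TSO2 and 17.4% for CYCA2;1 at their lowest read numbers. Bamboo replicate 2 was the library farther from Col-0-b: its correlation with the Col-0-b libraries across 20274 features was 0.983 to 0.987, against 0.990 to 0.992 for bamboo replicate 3. The bamboo libraries correlated with each other at 0.990. Results below are therefore given for each bamboo library as well. Summed normalized counts of 9 photosynthetic genes, markers of shoot tissue, were 3225 and 3153 in bamboo replicates 2 and 3, against 4089, 2492 and 2322 in Col-0-b replicates 1, 2 and 3. Col-0-b replicate 1 stood apart: CAB3 had 4.66 and 9.32 normalized counts in bamboo, against 130, 6.16 and 9.13 in Col-0-b, and RBCS3B 5.59 and 1.69 in bamboo, against 131, 0 and 1.01 in Col-0-b. RBCS1B was at 0 in Col-0-b replicates 2 and 3. PSBR and PSAF, which had the highest counts of that list, had log2 fold changes of 0.32 and 0.13. For PSBR both bamboo libraries lay above every Col-0-b library (limma adjusted p = 0.135), while for PSAF the groups overlapped. Of the 9 genes 6 were tested, and all 6 had positive values. The part of this list in the results was not tested, but values without Col-0-b replicate 1 are given below.

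No member of the list was called as changed in bamboo. Levels were compared as log2(normalized count + 1) with limma across all 20274 tested features, and each fold change is the bamboo mean minus the Col-0-b mean on that scale. With a Benjamini-Hochberg adjusted p under 0.05, 0 of 34 were higher and 0 of 34 were lower, where 0.0691% of all tested features were called higher and 0.0641% lower. The lowest adjusted p among the 34 was 0.159, for MCM7. The values nevertheless lay mostly on one side: 29 of 34 fold changes were negative (85.3%), with a median of -0.16, against 50.1% negative and a median of -0.00057 over all tested features. The 34 genes were measured in the same libraries, so their signs are not 34 independent observations. Bamboo replicate 2 alone was the lowest library for 23 of the 34, where it was the lowest for 30.1% of all tested features. At an unadjusted p under 0.05, 8 of 34 were lower and 0 higher, where 8.21% of all features were lower and 8.6% higher at that level. edgeR and DESeq2 on the reads recovered from the table also called 0 of 34 in either direction, with 0.0592% and 0.628% of all features called lower and 0.0789% and 1.03% called higher.

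**Figure D1:**
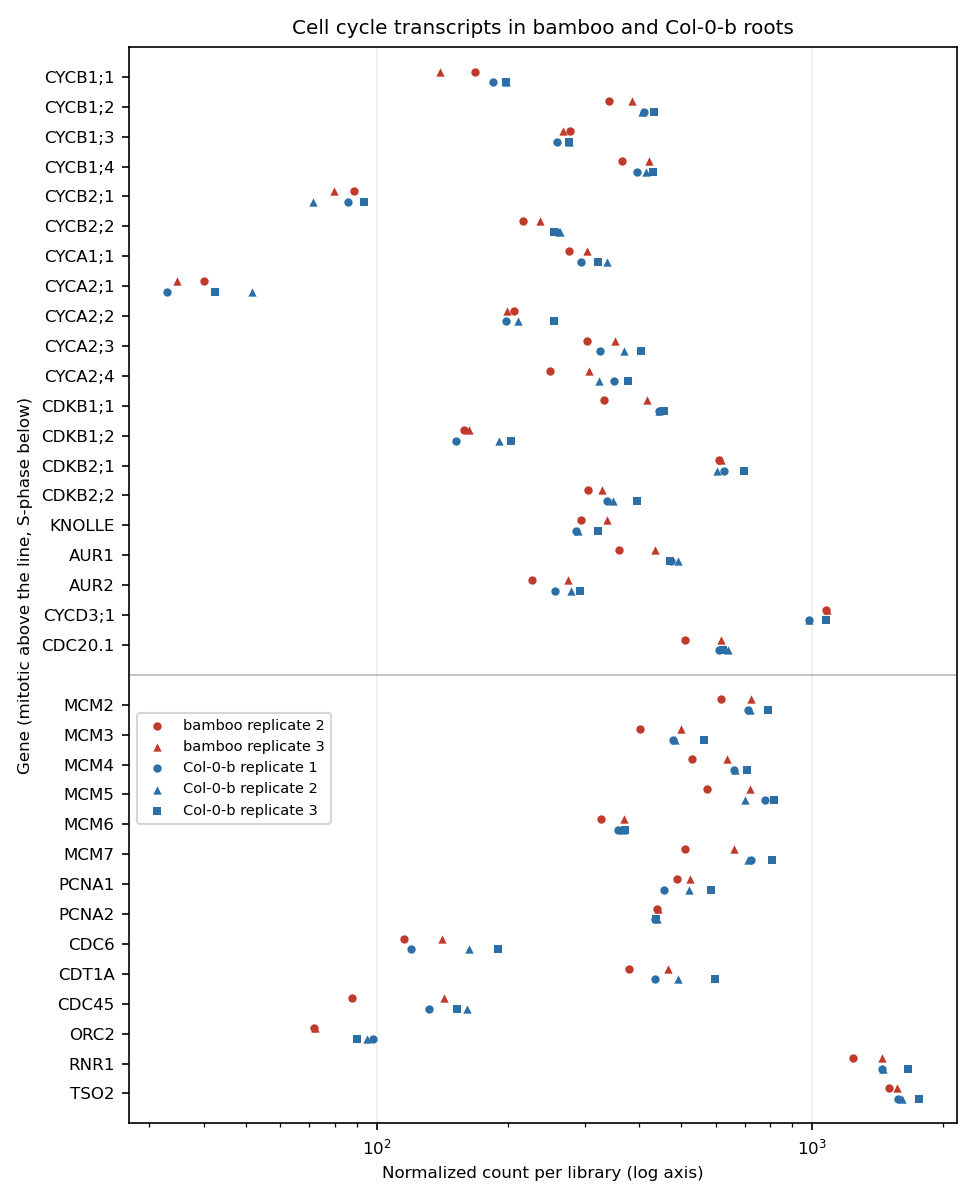
Normalized counts (log axis) of the 34 cell cycle genes in each library, with bamboo replicates 2 and 3 in red above Col-0-b replicates 1 to 3 in blue for each gene, mitotic genes above the grey line and S-phase genes below it. Both bamboo libraries lie left of every Col-0-b library for 11 of the 34 genes, where 17.5% of all tested features do. Among the 11 are CYCB1;1, AUR1, MCM7 and ORC2.

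Library by library, both bamboo values lay below all Col-0-b values for 11 of 34 genes (32.4%) and above them for 0, where 17.5% of all tested features lay below and 17.1% above. The 11 were CYCB1;1, CYCB1;2, CYCB2;2, CYCA2;4, CDKB1;1, CDKB2;2, AUR1, MCM4, MCM7, ORC2 and TSO2. Bamboo replicate 2 was low for more genes than bamboo replicate 3. It was below the range of Col-0-b for 24 of 34 genes, against 35.5% of all features, while bamboo replicate 3 was below it for 11 and inside it for 20, against 28.2% and 43.9% of all features. The median deviation from the Col-0-b mean was -0.26 (log2) in bamboo replicate 2 and -0.07 in bamboo replicate 3. In Col-0-b replicate 1 it was -0.06 and in Col-0-b replicate 3 it was 0.09, so bamboo replicate 3 stood about as low as Col-0-b replicate 1. Without bamboo replicate 2, limma called 0 of 34 in either direction, where 0.0645% of features were higher and 0.0893% lower. Without bamboo replicate 3 it called 7 of 34 lower and 0 higher, where 5.22% of features were lower and 4.44% higher. Without Col-0-b replicate 1, the library high in photosynthetic transcripts, it called 0 of the 34 genes in either direction, where 0.0297% of features were called higher and 0.0198% lower, and the medians were -0.19 for the mitotic and -0.23 for the S-phase genes. With the replicate number as a block limma called 1 lower (MCM7) and 0 higher, where 1.87% of features were lower and 2.53% higher. Only replicates 2 and 3 occur in both groups, so Col-0-b replicate 1 added nothing to the group difference in that fit. Its fold changes equal those without Col-0-b replicate 1. The summed level of the 34 genes was 13682 and 15403 normalized counts in bamboo replicates 2 and 3, against 15374, 15771 and 17147 in Col-0-b replicates 1, 2 and 3. The 2 groups overlapped in this sum, since bamboo replicate 3 was above Col-0-b replicate 1.

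**Figure D2:**
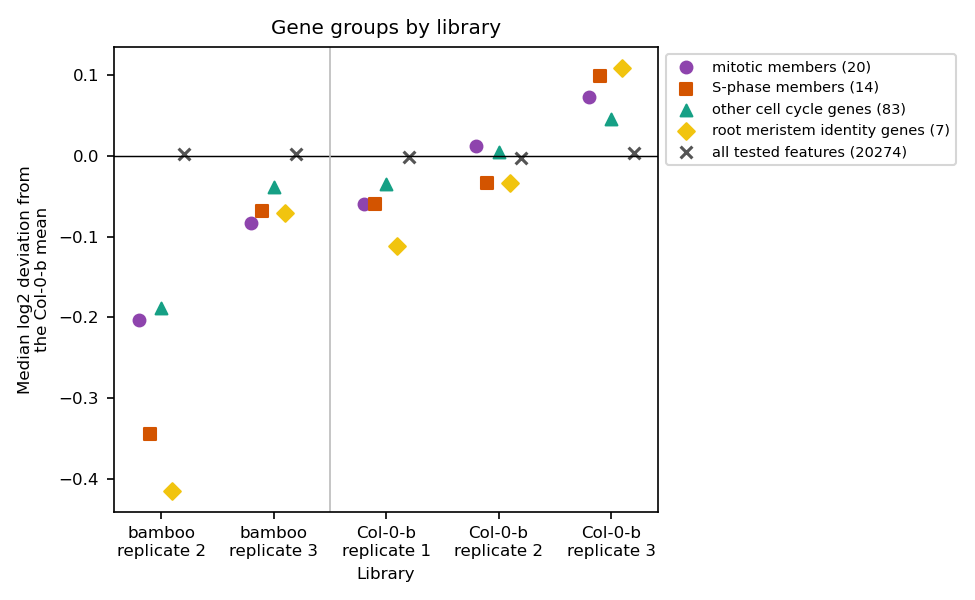
Median log2 deviation from the Col-0-b mean in each library for the 20 mitotic genes, the 14 S-phase genes, 83 other cell cycle genes, 7 root meristem identity genes and all 20274 tested features. Bamboo replicate 2 is lowest for the 4 gene groups, at -0.20 and -0.35 for the mitotic and S-phase genes, while all features stay near 0.

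B-type cyclins, which activate kinases for the entry into mitosis, gave mixed values. CYCB1;1 (AT4G37490), the cyclin whose promoter is widely used to mark cells in G2 and M and which also responds to DNA damage, had 168 and 140 normalized counts in bamboo, against 185, 198 and 198 in Col-0-b. Both bamboo libraries were below the wild type, with a log2 fold change of -0.34 (SE 0.13) and a limma adjusted p of 0.232. It was 1 of 5 members (with CYCB1;3, CYCB2;1, CYCA2;1 and CYCA2;2) in which bamboo replicate 3 was the lower of the bamboo pair. CYCB1;2 (AT5G06150) had 342 and 385 normalized counts in bamboo and 411, 407 and 432 in Col-0-b, again without overlap (-0.20, SE 0.10, limma adjusted p = 0.322). CYCB2;2 (AT4G35620) averaged 226 ± 14.3 in bamboo and 259 ± 4.64 in Col-0-b (SD over 2 and 3 libraries), without overlap of libraries (-0.20, adjusted p = 0.376).

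For the relatives CYCB1;3 and CYCB1;4 and for CYCB2;1 the libraries of bamboo and Col-0-b overlapped. CYCB1;3 (AT3G11520) was at 278 and 267 normalized counts in bamboo, against 260, 276 and 276 in Col-0-b, a difference of 0.01 with a 95% interval of -0.22 to 0.24. CYCB1;4 (AT2G26760) was at 365 and 421 in bamboo, against 396, 415 and 431 in Col-0-b (-0.08, interval -0.29 to 0.14). For CYCB2;1 (AT2G17620), the one of the 6 with the fewest counts, with a mean of 84.1 ± 6.29 in bamboo and 83.6 ± 11.1 in Col-0-b, the difference was 0.02 with an interval of -0.37 to 0.40. The 6 B-type cyclins thus gave 4 negative and 2 positive values, and 3 of the 6 lay below Col-0-b without overlap and 0 above, where 17.5% and 17.1% of all features did. Whether CYCB1;1 and CYCB1;3 differed from each other in response was not tested.

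All 5 A-type cyclins had negative values, from -0.33 to -0.11. CYCA2;4 (AT1G80370), one of the A2 cyclins known to act with CDKB1;1 to restrain endoreduplication, had 250 and 308 normalized counts in bamboo and 351, 323 and 377 in Col-0-b. Its bamboo libraries lay below every Col-0-b library (log2 fold change -0.33, SE 0.12, limma adjusted p = 0.202). CYCA2;3 (AT1G15570), of the same subfamily, had 304 and 353 in bamboo and 326, 370 and 404 in Col-0-b, so that the groups overlapped (-0.16, adjusted p = 0.521). CYCA1;1 (AT1G44110), an A1 cyclin of the late cycle, was likewise mixed, at 276 and 304 in bamboo and 294, 338 and 322 in Col-0-b (-0.13, adjusted p = 0.558). CYCA2;1 (AT5G25380) and CYCA2;2 (AT5G11300) had values of -0.16 and -0.11; CYCA2;1 was the gene with the fewest reads and the widest interval, -0.70 to 0.39.

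B-type cyclin-dependent kinases are specific to plants and peak from S phase to mitosis, and all 4 had negative values here. CDKB1;1 (AT3G54180) had 332 and 417 normalized counts in bamboo, against 445, 444 and 456 in Col-0-b. The Col-0-b libraries agreed closely (mean 448 ± 7.0), and both bamboo libraries were below them, with a log2 fold change of -0.27 (SE 0.11) and a limma adjusted p of 0.242. CDKB1;2 (AT2G38620), its close relative, averaged 161 ± 3.0 in bamboo and 182 ± 26.6 in Col-0-b (-0.17, adjusted p = 0.582). CDKB2;2 (AT1G20930) had 306 and 330 in bamboo and 338, 349 and 395 in Col-0-b, also without overlap (-0.18, adjusted p = 0.405). CDKB2;1 (AT1G76540), the sister kinase, had 610 and 619 in bamboo, within the range of the 627, 605 and 696 of Col-0-b (-0.06, adjusted p = 0.757). Since close paralogues may exchange reads in counting, the pairs were also summed: the log2 difference was -0.24 for CDKB1;1 with CDKB1;2 and -0.10 for CDKB2;1 with CDKB2;2.

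Among the 4 members that act in spindle, mitotic exit and cytokinesis, AUR1 stood lowest. AUR1 (AT4G32830), an Aurora kinase that acts at the spindle and the forming cell plate, had 360 and 435 normalized counts in bamboo, against 475, 492 and 471 in Col-0-b, with no overlap (-0.28, SE 0.10, limma adjusted p = 0.212). AUR2 (AT2G25880), its paralogue, averaged 251 ± 33.3 in bamboo and 275 ± 18.3 in Col-0-b, with overlap (-0.14, adjusted p = 0.584), and the summed pair differed by -0.22. CDC20.1 (AT4G33270), an activator of the anaphase-promoting complex, had 509 and 616 in bamboo and 610, 641 and 625 in Col-0-b. Here bamboo replicate 2 was apart and bamboo replicate 3 lay among the wild-type libraries (-0.16, adjusted p = 0.420). Together with the neighbouring CDC20.2 the difference was -0.14.

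KNOLLE and CYCD3;1 had positive values. KNOLLE (AT1G08560), the syntaxin that fuses vesicles into the cell plate, had 295 and 338 normalized counts in bamboo, against 287, 290 and 322 in Col-0-b (log2 fold change 0.08, interval -0.16 to 0.32). CYCD3;1 (AT4G34160), a cyclin controlled by cytokinin and sucrose, had 1075 and 1078 in bamboo and 980, 982 and 1075 in Col-0-b (0.09, interval -0.08 to 0.26). The groups overlapped for both genes, and neither was called (limma adjusted p = 0.764 and 0.581). Taking all 20 mitotic genes, 16 values were negative and the median was -0.16. At an unadjusted p under 0.05, 4 of the 20 were lower and 0 higher, where 8.21% and 8.6% of all features were, and 7 of the 20 were below Col-0-b without overlap, where 17.5% of all features were.

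**Figure D3:**
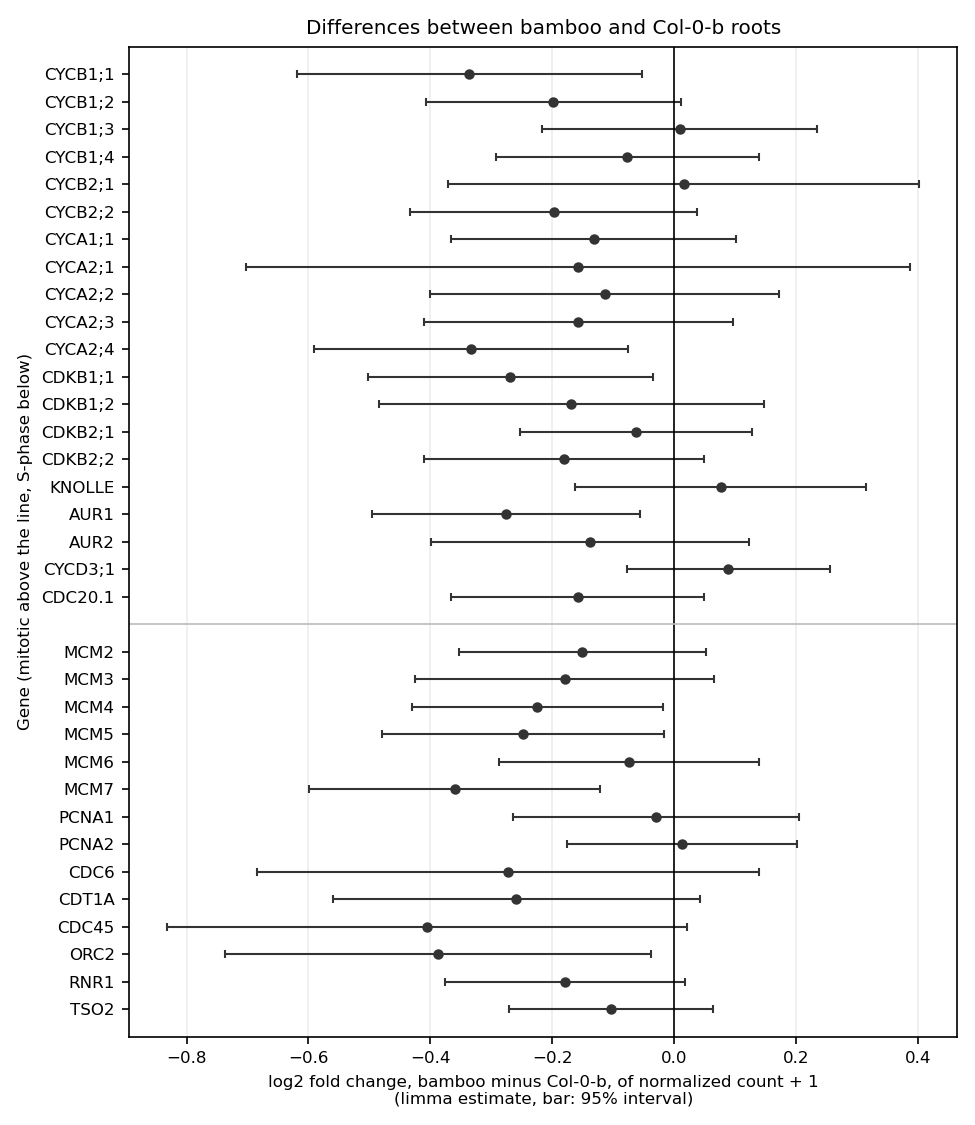
Log2 fold changes (bamboo minus Col-0-b, of normalized count + 1) of the 34 genes as limma estimates with 95% intervals, mitotic genes above the grey line and S-phase genes below it. The values run from -0.41 for CDC45 to 0.09 for CYCD3;1, and 26 of the 34 intervals include 0.

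All 6 subunits of the MCM2-7 ring, the helicase that opens DNA at the replication fork, had negative values, from -0.36 to -0.07. MCM7 (AT4G02060), also known as PROLIFERA, had 511 and 659 normalized counts in bamboo, against 722, 711 and 806 in Col-0-b. Both bamboo libraries were below the wild type, and the gene had the smallest p of the 34 (-0.36, SE 0.11, limma adjusted p = 0.159). MCM5 (AT2G07690) had 574 and 720 in bamboo and 778, 701 and 817 in Col-0-b (-0.25, SE 0.11, adjusted p = 0.268). MCM2 (AT1G44900) had 616 and 723 in bamboo and 713, 720 and 793 in Col-0-b (-0.15, adjusted p = 0.432). In both, bamboo replicate 3 fell within the wild-type range.

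MCM4 (AT2G16440) averaged 582 ± 75.0 in bamboo and 678 ± 27.4 in Col-0-b (-0.22, adjusted p = 0.264), without overlap. MCM3 (AT5G46280) averaged 451 ± 68.2 in bamboo and 509 ± 47.3 in Col-0-b (-0.18), and MCM6 (AT5G44635) 348 ± 29.3 in bamboo and 366 ± 6.32 in Col-0-b (-0.07), both with overlap. The libraries between the extremes came in different orders. For 6 of 6 subunits bamboo replicate 2 was the lowest of the 5 libraries and Col-0-b replicate 3 the highest. Over all tested features, bamboo replicate 2 was the lowest library for 30.1%, and Col-0-b replicate 3 the highest for 5113 of 20274.

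Genes that prepare and fire replication origins had the most negative median of any role, -0.33 over 4 genes. The roles were ranked after their values were seen. That low median came mostly from bamboo replicate 2, whose median deviation for these genes reached -0.41. Bamboo replicate 3 stood at -0.12, nearer the Col-0-b mean than Col-0-b replicate 1 at -0.19. Col-0-b replicates 2 and 3 stood at 0.04 and 0.15. CDC45 (AT3G25100), which joins the MCM ring to form the active helicase, had 87.6 and 142 normalized counts in bamboo, against 132, 161 and 153 in Col-0-b (log2 fold change -0.41, SE 0.20, limma adjusted p = 0.319). That value rested on bamboo replicate 2, at -0.75 from the Col-0-b mean, while bamboo replicate 3 was at -0.06. ORC2 (AT2G37560), a subunit of the origin recognition complex, was the opposite case, with 71.8 and 72.0 in bamboo and 97.9, 94.9 and 90.2 in Col-0-b. Both bamboo libraries stood equally low, at -0.39 and -0.38 from the Col-0-b mean (-0.39, SE 0.16, adjusted p = 0.257). ORC2 was singled out after its values were seen.

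CDC6 and CDT1A, the factors that load the MCM ring onto origins, varied widely in the wild type as well. CDT1A (AT2G31270) had 379 and 465 normalized counts in bamboo, against 435, 491 and 596 in Col-0-b (-0.26, limma adjusted p = 0.360). CDC6 (AT2G29680) had 116 and 142 in bamboo and 120, 163 and 190 in Col-0-b (-0.27, adjusted p = 0.488). In both genes the bamboo and Col-0-b libraries overlapped.

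PCNA1 and PCNA2, the near-identical sliding clamps of the replication fork, showed the smallest differences of the S-phase set. PCNA2 (AT2G29570) was almost level, at 439 and 443 normalized counts in bamboo, against 435, 440 and 437 in Col-0-b (log2 fold change 0.01, interval -0.18 to 0.20). PCNA1 (AT1G07370) had 489 and 525 in bamboo and 456, 520 and 584 in Col-0-b (-0.03, interval -0.26 to 0.20). Their sum differed by -0.01. For these clamp genes bamboo replicate 2, the lowest library for the other 12 S-phase genes, was the lowest for neither.

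RNR1 and TSO2 encode the large and a small subunit of ribonucleotide reductase, which makes the deoxyribonucleotides for DNA synthesis. RNR1 (AT2G21790) had 1237 and 1449 normalized counts in bamboo, against 1448, 1454 and 1655 in Col-0-b, with overlap (log2 fold change -0.18, limma adjusted p = 0.340). TSO2 (AT3G27060) had 1497 and 1563 in bamboo and 1572, 1603 and 1761 in Col-0-b, without overlap (-0.10, adjusted p = 0.521). Over the 14 S-phase genes, 13 values were negative and the median was -0.20. Of the 14, 4 were lower and 0 higher at an unadjusted p under 0.05, where 8.21% and 8.6% of all features were, and 4 were below Col-0-b without overlap, where 17.5% of all features were. The difference in median between the S-phase and mitotic sets was not tested.

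The intervals bound what these 5 libraries could have missed. Across the 34 genes the lowest 95% bound was -0.83 (CDC45) and the highest 0.40 (CYCB2;1), so 0 intervals reached a 2-fold change in either direction. The median half-width was 0.23, and the intervals of 26 genes included 0.

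The rest of the cell cycle machinery was examined through 83 further genes in 8 lists, all tested. limma called 0 of them in either direction, where 0.0691% of all features were called higher and 0.0641% lower. Of the 83, 60 had negative values (median -0.13), against 50.1% negative over all features. At an unadjusted p under 0.05, 9 of the 83 were lower and 1 higher, where 8.21% of all features were lower and 8.6% higher. Without overlap, 24 lay below Col-0-b and 7 above, where 17.5% and 17.1% of all features did. Other replication genes were negative in 17 of 21 (median -0.17), from -0.59 for ORC1A, an origin recognition subunit, to 0.17 for AT1G07270. Further cyclins were negative in 11 of 15 (median -0.16), from -0.59 for CYCA1;2, known for its role in meiosis, to 0.12 for CYCB2;3. Other mitotic genes were negative in 8 of 10 (median -0.11), from -0.47 for EDE1, a microtubule-associated protein, to 0.13 for KEULE, a partner of KNOLLE in vesicle fusion.

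The regulators were more mixed. CDK inhibitors and WEE1 were negative in 5 of 11 (median 0.07), with KRP6 at 0.27 and SMR1 at -0.22. E2F, DP and retinoblastoma genes were negative in 6 of 9 (median -0.03), with the activator E2FA at -0.36 and the atypical factor DEL2 at 0.17. MYB3R genes gave 3 negative values of 4, with the activator MYB3R4 at -0.22 and MYB3R3, known as a repressor, at 0.20. Regulators of the anaphase-promoting complex gave 4 of 6, with CCS52A1, which promotes endoreduplication, at -0.26 and CCS52A2 at 0.11. CDKA;1 and its associates gave 6 of 7, with CKS1, a small CDK-binding subunit, at 0.24 and CDKD;1, a CDK-activating kinase, at -0.20.

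Markers of root cell types were read in the same libraries, and none of the 7 meristem, 7 root hair and 6 xylem genes was at 0 in any of them. Root meristem identity genes were negative in 6 of 7 (median -0.25, 0 called), and their summed level was 2118 and 2609 normalized counts in bamboo replicates 2 and 3, against 2469, 2624 and 2967 in Col-0-b replicates 1, 2 and 3. In bamboo replicates 2 and 3 the meristem list deviated by medians of -0.41 and -0.07, against -0.11, -0.03 and 0.11 in Col-0-b replicates 1, 2 and 3. As with the cell cycle genes, bamboo replicate 2 was lowest and Col-0-b replicate 3 highest, and here Col-0-b replicate 1 was below bamboo replicate 3. SCR and SHR, which had the highest counts of the list and are regulators of the stem cell niche and ground tissue, had values of -0.13 and -0.19. The ends of the list, named after their values were seen, were PLT2 at -0.39 and WOX5, which marks the quiescent centre, at 0.34, the one positive value. Root hair genes had a median of 0.03 over 7 genes (PRP3 0.26, LRX1 -0.18, both with overlap), with sums of 4430 to 5169 in bamboo and 4115 to 5023 in Col-0-b. Its ends, also named after their values were seen, did not overlap: RHD6, a factor that starts root hair growth, was at -0.38 with bamboo below (limma adjusted p = 0.151), and RSL4, a factor of hair elongation, at 0.32 with bamboo above (adjusted p = 0.279). Xylem genes had a median of -0.07 over 6 genes (XCP1 0.04, XCP2 -0.04), with sums of 9558 to 9588 in bamboo and 9007 to 10560 in Col-0-b. None of these 4 marker lists had a called gene, and their part in the cell cycle values was not tested.

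The second wild-type set, Col-0, was deposited in a separate table of raw counts and enters no test. To set it beside the others, reads were divided by the library total and given as CPM, the usual depth-scaled unit. The 20 mitotic genes summed to 302 and 339 CPM in the bamboo libraries, 375 to 399 CPM in Col-0 and 336 to 368 CPM in Col-0-b. The 14 S-phase genes summed to 343 and 408 CPM in the bamboo libraries, 340 to 406 CPM in Col-0 and 406 to 460 CPM in Col-0-b. The S-phase sum of bamboo replicate 2 lay within the range of Col-0 and below that of Col-0-b, while its mitotic sum was below all 6 wild-type libraries.

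Gene by gene, both bamboo libraries were below all 6 wild-type libraries for CYCB1;1, CYCB1;2, CYCB2;2, CDKB1;1, CDKB2;2 and AUR1, all mitotic, and above all 6 for none of the 34. That is 6 of 34, where 5% of all tested features were below and 4.92% above. The wild-type sets themselves differed: the median log2 ratio of Col-0 to Col-0-b was 0.075 for the mitotic and -0.10 for the S-phase genes. Col-0 lay wholly above Col-0-b for CYCB1;1, CYCB1;2, CYCB2;2 and CDKB2;2, and wholly below it for MCM7, ORC2 and TSO2. Whether the bamboo values of the mitotic genes differed from those of the S-phase genes was not tested. CYCB1;1 had 7.91 and 6.78 CPM in the bamboo libraries, 10.1, 11.4 and 13.8 CPM in Col-0, and 8.92, 9.49 and 9.54 CPM in Col-0-b. AUR1 had 17.0 and 21.1 CPM in the bamboo libraries, 24.8, 21.6 and 22.1 CPM in Col-0, and 22.9, 23.5 and 22.7 CPM in Col-0-b. ORC2, low in both bamboo libraries against Col-0-b, was at 3.38 and 3.49 CPM in the bamboo libraries, 2.91, 2.88 and 3.30 CPM in Col-0, and 4.72, 4.54 and 4.35 CPM in Col-0-b. Its bamboo values were therefore above those of Col-0, but by a small margin on few reads. ORC2 had 77 and 85 reads in the bamboo libraries and 61, 61 and 45 in Col-0, and this order was not tested. MCM7 averaged 28.0 ± 5.58 CPM in bamboo, 31.8 ± 1.83 CPM in Col-0 and 35.9 ± 2.62 CPM in Col-0-b, and its bamboo libraries overlapped those of Col-0.

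**Figure D4:**
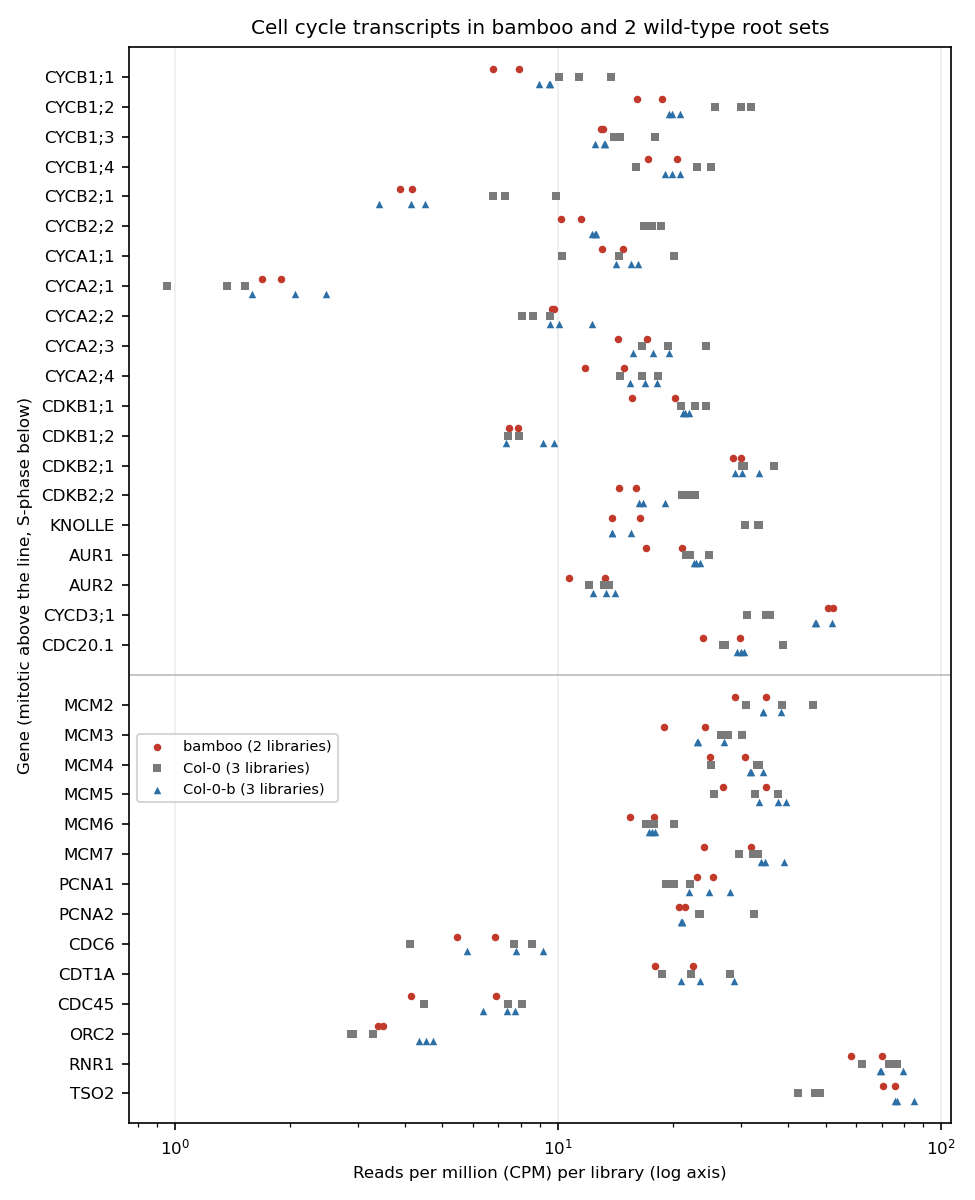
CPM (reads scaled to library depth, log axis) of the 34 genes in bamboo (2 libraries, red), Col-0 (3 libraries, grey) and Col-0-b (3 libraries, blue), mitotic genes above the grey line and S-phase genes below it. KNOLLE and CYCB2;1 lie higher in Col-0 than in the other groups, TSO2 and CYCD3;1 lower. Bamboo is below both wild-type sets for 6 of the 34 genes, where 5% of all tested features are.

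Log2 ratios of Col-0 to Col-0-b CPM ran from -0.79 to 1.17 over the 34 genes, where the bamboo fold changes ran from -0.41 to 0.09. These spans are on unlike measures. The ratios are of mean CPM in separately deposited sets, and the fold changes are limma differences of log2 normalized counts. KNOLLE had 33.3, 30.8 and 33.4 CPM in Col-0, against 13.8, 13.9 and 15.6 CPM in Col-0-b, a ratio of 2.26. CYCB2;1 had 9.88, 6.79 and 7.26 CPM in Col-0, against 4.15, 3.42 and 4.50 CPM in Col-0-b, a ratio of 1.98. In the other direction, TSO2 averaged 45.9 ± 3.21 CPM in Col-0 and 79.2 ± 5.04 CPM in Col-0-b, a ratio of 0.580. The median log2 ratio of Col-0 to Col-0-b was -0.02 over the 34 genes and 0.01 over all tested features. Libraries of the 2 sets did not overlap for 8 genes with Col-0 above and 6 with Col-0 below, where 26.9% and 26% of all features did the same. The labels do not say how the wild-type sets differ, and the cause was not tested.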

How the data were processed

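The members and lists were chosen with earlier results of these data known. A stranded mRNA kit and single-end sequencing were used, per the labels. The submitters' processing notes list STAR 2.7.2a, Trimmomatic, featureCounts, Subread 1.6.5 and the build TAIR10. The strand setting of the counting was not given in the sources used here, and a gene may hold reads of an antisense neighbour. Raw counts were deposited for Col-0. For the other 5 libraries, of bamboo and Col-0-b, a normalized signal was deposited, in which each library's counts are divided by its own factor (0.811 to 1.18). The wild-type columns beside bamboo name no set and were taken as Col-0-b; 6 columns whose names do not settle the line were not used. Values were whole multiples of 1 step (100%, tolerance 0.01), which gave back reads.

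Features reaching a value of 10 in at least 2 of the 5 libraries (20274 of 37336) were tested with limma 3.58.1 (R 4.3.3; trended, robust; group as the only term) on log2(value + 1), a scale that understates changes of low genes; the test was tried on simulated data. edgeR 4.0.16 and DESeq2 1.42.0 used the recovered reads. Other settings were a pseudocount of 8, no filter, TMM rescaling, a replicate block and leaving out each library. Replicates differed by more than sampling noise in each pair (chi-square), and none was merged. Levels are mean ± SD. Every member is named. Full library values are given for up to 3 members of highest mean per role and the 5 with the smallest p, in the other cell cycle lists the highest and lowest values are named, and in the marker lists the 2 genes of highest mean count; further names were added after seeing values. Symbols came from RefSeq (TAIR10.1), used for names only. It held 37051 features and gave 6 of the 83 other cell cycle loci no symbol. No sequence is printed.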

Additional observations from a re-analysis of the deposited data

How the results depend on the processing

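The 34 genes had 0 calls in either direction in each of the 11 alternatives, except for lower calls in 2 of them. With the replicate block, 1 member (MCM7, log2 fold change -0.38, limma adjusted p = 0.0348) was lower. Only replicates 2 and 3 bear on the group difference in that fit. Leaving out 1 library gave 0 to 7 lower. The 7 (CYCA2;4, CDKB1;1, AUR1, MCM4, MCM5, MCM7 and CDC45, from -0.75 to -0.36) came without bamboo replicate 3, in a fit that lends the single remaining bamboo library the spread of Col-0-b. Without bamboo replicate 2, the same 7 ran from -0.18 (CYCA2;4) to -0.06 (CDC45). Leaving out 1 library, the mitotic median ran from -0.20 to -0.083 and the S-phase median from -0.345 to -0.069, the values nearest 0 being those without bamboo replicate 2. Over all features, 14 were higher and 13 lower. These counts were 46 and 29 with no low-value filter, 188 and 115 with DESeq2 and 513 and 379 with the replicate block, and leaving out 1 library gave 6 to 894 higher and 4 to 1052 lower. The cause was not tested.

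Signs turned for 6 members, all with full-fit values between -0.08 and 0.08. CYCB1;3 was -0.019 with the replicate block and between -0.019 (without bamboo replicate 2 or Col-0-b replicate 1) and 0.038 on leaving out 1 library. CYCB2;1 was -0.0022 with edgeR and between -0.091 (without Col-0-b replicate 2) and 0.098, with -0.06 without bamboo replicate 2. The same ranges were -0.18 to 0.025 for CYCB1;4, -0.023 to 0.18 for KNOLLE, -0.16 to 0.011 for MCM6 and -0.12 to 0.057 for PCNA1. The turned values came without bamboo replicate 2 for CYCB1;4 and MCM6, without bamboo replicate 3 for KNOLLE, and without bamboo replicate 2 (0.02) or Col-0-b replicate 3 for PCNA1.

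Only numbers 2 and 3 occur in both groups, and libraries of the same number deviated together with a correlation of 0.079, so the numbers were not taken to pair the libraries. Depth limits CYCA2;1, CYCB2;1 and ORC2, with 33, 58 and 77 reads in their lowest library of bamboo or Col-0-b. In Col-0 replicate 3, CYCA2;1 had 13 reads, ORC2 45, CDC6 56 and CDC45 61.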
